A study of Mus musculus with 8 samples.

Results

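Tuft cells are rare, chemosensory cells of the intestinal epithelium, and 9 of their marker genes were followed here through the colon epithelium of 3 glycosyltransferase mutants and wild-type mice. The members were taken by symbol, and all 9 were found once each among 24346 genes: the transcription factor genes Pou2f3 and Gfi1b, the channel gene Trpm5, the structural and kinase genes Avil and Dclk1, the eicosanoid genes Ptgs1, Alox5 and Alox5ap, and the cytokine gene Il25. Colon epithelial cells of untreated C57BL/6J mice were sequenced as mRNA in 8 libraries, a male (n = 1) and a female (n = 1) for each of the 4 genotypes. The genotypes were wild-type, St6galnac6-/- (a sialyltransferase), B3galt5D116A (the D116A substitution in a galactosyltransferase) and B3gnt7-/- (an N-acetylglucosaminyltransferase), and all 3 enzymes build glycans such as those on intestinal mucins. The labels give no age, and they do not say how many animals each library came from. Levels are given in FPKM, fragments scaled to the transcript's length and to the number mapped in the library.

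Tuft cells sense succinate, bitter compounds and other products of microbes and parasites through G protein signalling that opens the cation channel Trpm5. They depend on the transcription factor Pou2f3, and in response they release Il25, acetylcholine, prostaglandins and leukotrienes. In the small intestine, Il25 acts on type 2 innate lymphoid cells, whose Il13 in turn increases the number of tuft and goblet cells.

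Each of the 9 genes was low in these libraries. Mean levels over the 8 libraries were 1.20 FPKM for Trpm5, 1.09 for Avil, 0.898 for Alox5ap, 0.649 for Dclk1, 0.436 for Alox5, 0.373 for Ptgs1, 0.280 for Pou2f3, 0.134 for Gfi1b and 0.0647 for Il25. FPKM is per length, so levels can be ordered between genes. Ranges over libraries overlapped between every gene and the next in that order. Trpm5 and Avil were the 2 members with a mean of at least 1 FPKM, and Pou2f3, Alox5, Gfi1b and Il25 were below 1 FPKM in every library. Between 4 and 9 of the 9 members were below 1 FPKM in a given library, with 4 in the B3gnt7-/- female and 9 in the wild-type female and the B3gnt7-/- male. In bulk epithelium, fewer tuft cells and less RNA per tuft cell cannot be told apart.

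**Figure D1:**
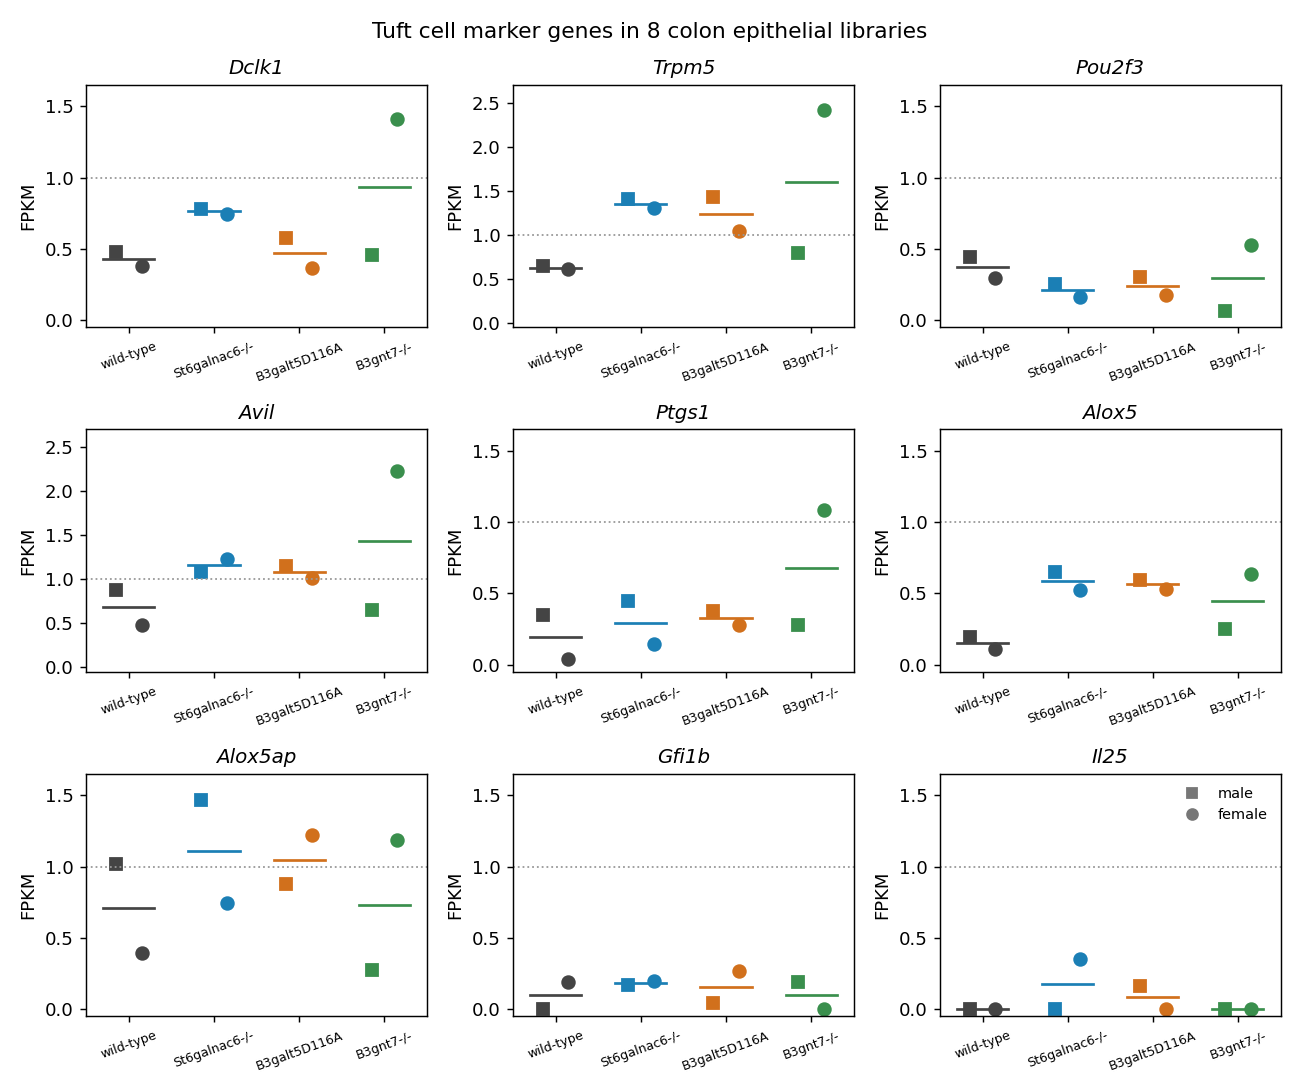
FPKM (vertical axis) of the 9 tuft cell marker genes in each library, by genotype; squares are males, circles are females, short lines are the mean of the 2 libraries and the dotted line marks 1 FPKM. The B3gnt7-/- female circle stands highest for Dclk1, Trpm5, Pou2f3, Avil and Ptgs1, while Gfi1b and Il25 lie near 0 throughout.

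The epithelial label was checked against its markers: 10 colon epithelial genes such as Epcam and Cdh1 summed to between 9363 and 12296 FPKM. The B3gnt7-/- female library stood apart. It held the highest value of 5 of 9 members, against 28.8% of the 3498 genes whose mean lies in the members' range, and the sum over the members was 9.49 FPKM there against 2.51 to 6.25 in the other 7. It also held the highest value of 20.6% of all 17801 genes above 0, and the lowest FPKM sum of the 8 libraries. Of 9 lists of markers of other cell types, 4 summed highest in this library. For the mast cell and basophil list this rested mostly on Kit (17.4 of 17.8 FPKM), with Mcpt1 and Mcpt2 listed at 0 there. The 10 stromal, endothelial and muscle genes summed to 15.8 FPKM against 4.69 to 7.26 elsewhere, with Col3a1 at 3.61 and Vim at 8.92. The 10 T and intraepithelial lymphocyte genes summed to 18.1 (6.37 to 16.8 elsewhere), and Hba-a1, a haemoglobin gene, was at 48.1 (8.12 to 22.8 elsewhere). The part of these cells in the values below was not tested. The targeted genes St6galnac6 and B3gnt7 were each lower in both of their own mutant libraries than in the other 6: St6galnac6 was at 218 and 232 FPKM against 343 to 495, and B3gnt7 at 68.8 (male) and 142 (female) against 154 to 266. B3galt5D116A is a substitution, so the transcript level does not check that label.

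For 7 of the 9 members the deposited values were whole multiples of 1 step once each library's relative depth was taken into account, within 0.01 of a step. If 1 step is 1 fragment, the members rested on few fragments over all 8 libraries: 490 for Trpm5, 298 for Avil, 113 for Alox5, 95 for Ptgs1, 60 for Pou2f3, 20 for Gfi1b and 3 for Il25. Relative depths were 1 to 1.45 times that of the wild-type male. Of 4176 genes with a mean under 1 FPKM, 84.3% could be read in this way, and Dclk1 and Alox5ap could not. Exact 95% Poisson intervals given below cover counting error only, not the spread between animals.

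**Figure D2:**
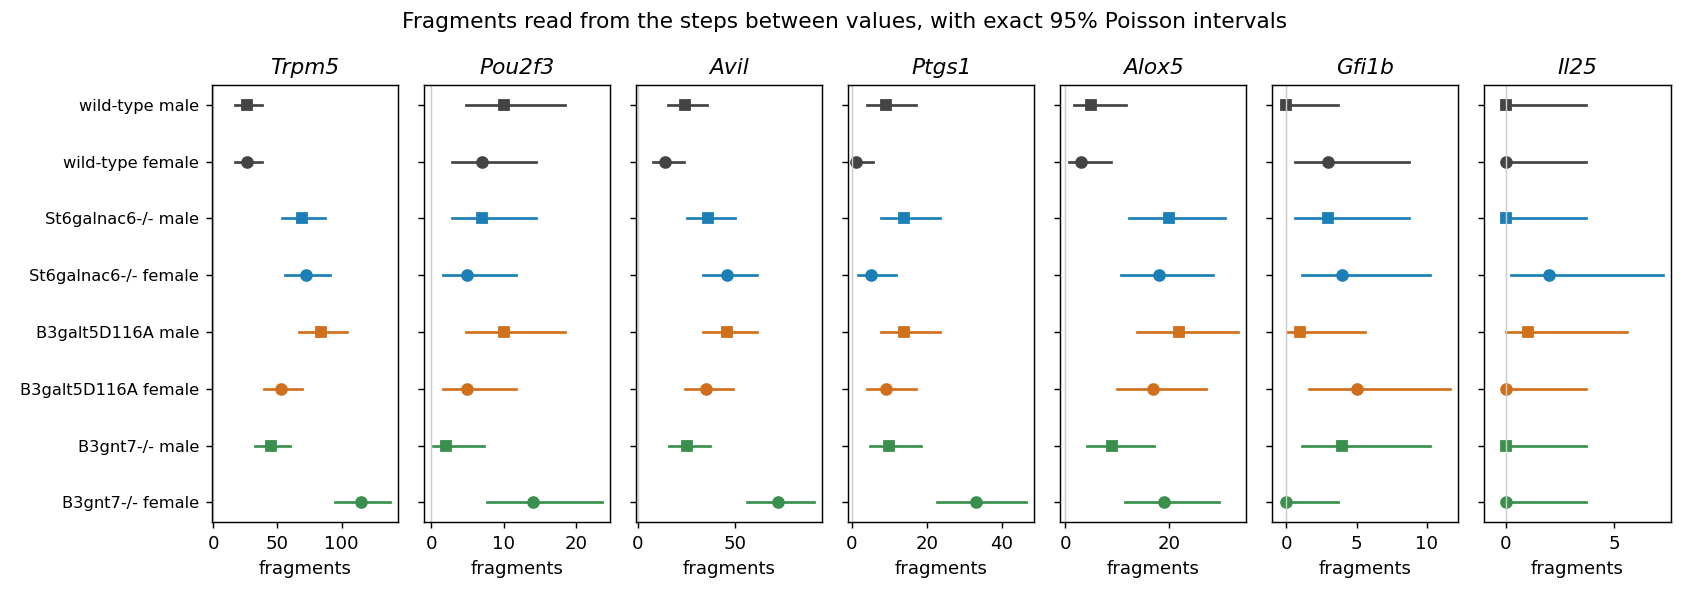
Fragments read for 7 members (horizontal axis, a scale per gene) in each library, with exact 95% Poisson intervals, before division by depth. Trpm5 runs from 26 to 115 fragments, Pou2f3 from 2 to 14, and Il25 from 0 to 2.

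Pou2f3, on chromosome 9 (mm10, 43123939 to 43210369, minus strand), encodes the POU-domain factor without which tuft cells do not form. It was at 0.445 (male) and 0.296 (female) FPKM in wild-type, 0.256 and 0.164 in St6galnac6-/-, 0.306 and 0.177 in B3galt5D116A, and 0.0634 and 0.529 in B3gnt7-/-. Both St6galnac6-/- libraries lay below both wild-type libraries, the B3galt5D116A pair overlapped wild-type, and the B3gnt7-/- pair spanned every other library. The values stood for 2 to 14 fragments per library. It was the member whose log2 difference from wild-type was negative in all 3 mutants, at -0.18 (SE 0.18), -0.14 (SE 0.18) and -0.10 (SE 0.18) in limma on log2(FPKM + 1), with adjusted p = 0.868, 0.826 and 0.935 for St6galnac6-/-, B3galt5D116A and B3gnt7-/-. In the B3gnt7-/- mice the sign was positive without the male library (0.23) or without the wild-type male (0.02).

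Gfi1b, on chromosome 2 (28609450 to 28621982, minus strand), encodes a zinc-finger repressor known from blood cells and tuft cells. It was listed at 0 in the wild-type male and the B3gnt7-/- female, and ran from 0.0467 FPKM (B3galt5D116A male) to 0.270 (B3galt5D116A female) in the other 6. These are 1 to 5 fragments, and a count of 0 is taken to allow up to 3 fragments (the two-sided interval drawn in the plot of fragments reaches 3.69), or 0.204 FPKM in that wild-type male and 0.173 in that B3gnt7-/- female. No order of the genotypes was detectable at this depth. The pooled intervals of each mutant overlapped that of wild-type.

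Trpm5, on chromosome 7 (143069153 to 143094642, minus strand), encodes the channel that depolarizes tuft cells when calcium is released. It was at 0.642 (male) and 0.610 (female) FPKM in wild-type, 1.40 and 1.31 in St6galnac6-/-, 1.43 and 1.04 in B3galt5D116A, and 0.792 and 2.41 in B3gnt7-/-. All 6 mutant libraries lay above both wild-type libraries. Mean levels (± SD, n = 2) were 0.626 ± 0.0226 in wild-type, 1.35 ± 0.0662 in St6galnac6-/-, 1.23 ± 0.275 in B3galt5D116A and 1.60 ± 1.15 in B3gnt7-/-, which is 2.16, 1.97 and 2.56 times wild-type. The 3 mutants overlapped each other. Differences from wild-type were log2 0.53 (95% interval -0.19 to 1.25), 0.45 (-0.27 to 1.17) and 0.60 (-0.11 to 1.32), each with SE 0.30, and with adjusted p = 0.650, 0.554 and 0.745 none passed limma's threshold of 0.05.

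Counting error alone did not span these differences for Trpm5. Fragments per unit of relative depth, pooled over both libraries of a genotype, were 25.3 in wild-type (95% Poisson interval 18.9 to 33.2). They were 54.8 (46.1 to 64.6) in St6galnac6-/-, 50.5 (42.4 to 59.7) in B3galt5D116A and 62.0 (52.8 to 72.4) in B3gnt7-/-, each clear of the wild-type interval. The B3gnt7-/- value rested on the female: her interval was 1.99 to 2.90 FPKM and the male's 0.577 to 1.06, the latter overlapping the wild-type male's 0.419 to 0.941. Without the female library, the B3gnt7-/- difference was log2 0.08 (SE 0.23).

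Avil, on chromosome 10 (127000709 to 127020994, plus strand), encodes advillin, an actin-bundling protein of the tuft cell's long microvilli. It was at 0.875 (male) and 0.485 (female) FPKM in wild-type, 1.08 and 1.23 in St6galnac6-/-, 1.15 and 1.01 in B3galt5D116A, and 0.650 and 2.23 in B3gnt7-/-. The St6galnac6-/- and B3galt5D116A libraries lay above both wild-type libraries, while the B3gnt7-/- pair lay on either side of the wild-type male. Mean levels (± SD, n = 2) were 0.680 ± 0.276, 1.16 ± 0.109, 1.08 ± 0.0998 and 1.44 ± 1.12 in that order of genotypes. Differences from wild-type were log2 0.37, 0.32 and 0.47, each with SE 0.32, and limma's adjusted p = 0.787, 0.692 and 0.819. Without the B3gnt7-/- female the last was -0.07 (SE 0.25), and without the wild-type female the B3galt5D116A difference was -0.01. Pooled fragments per relative depth were 18.5 in wild-type (13.1 to 25.4), and the St6galnac6-/- interval (25.3 to 39.5) and the B3galt5D116A interval (23.7 to 37.1) overlapped it, while that of B3gnt7-/- (30.5 to 45.9) did not.

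Trpm5 and Avil each share exon sequence with an abundant gene on the opposite strand. Trpm5 shares 220 bases with Tssc4 (12.0 to 16.4 FPKM), and Avil shares 165 bases with Tsfm (18.6 to 24.6 FPKM). Whether the counting used strand is not stated, so fragments of the partners cannot be told apart from those of the members there. Tssc4 was highest in the St6galnac6-/- female and Tsfm in the B3galt5D116A female.

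The sequence before the start of Avil and Trpm5, the pair with the highest Pearson r over the 8 libraries, is printed to show where the letters that POU factors such as Pou2f3 are known to recognise occur. The octamer searched was ATGCAAAT, and its core ATGCAAA, on both strands, the core lying within the octamer. Each window is the 250 bases before the start site (RefSeq, GRCm38.p6), read 5′ to 3′ on the gene's strand, with core matches in capitals. Avil lies at chr10:127000459-127000708 (plus strand) and Trpm5 at chr7:143094643-143094892 (minus strand).
Avil: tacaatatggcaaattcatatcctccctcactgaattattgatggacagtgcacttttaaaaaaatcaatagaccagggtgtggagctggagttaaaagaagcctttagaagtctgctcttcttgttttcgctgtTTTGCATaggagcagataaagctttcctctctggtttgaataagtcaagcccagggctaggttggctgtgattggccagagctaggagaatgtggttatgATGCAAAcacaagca
Trpm5: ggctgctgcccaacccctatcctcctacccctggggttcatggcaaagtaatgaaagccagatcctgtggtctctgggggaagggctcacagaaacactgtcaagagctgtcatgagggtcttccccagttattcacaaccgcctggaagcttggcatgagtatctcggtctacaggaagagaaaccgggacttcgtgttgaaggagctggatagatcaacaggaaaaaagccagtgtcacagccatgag
Avil's window held 2 core matches, starting 115 and 15 bases before the start site, the first on the minus and the second on the plus strand, and Trpm5's held none. Windows were found for 6 members (7 windows, since Dclk1 has a pair of start sites), and Avil's alone held the core, while 0 of 7 held the full octamer. Of 32851 windows of the same length, 4.12% held the core and 1.60% the octamer. Pou2f3, Alox5ap and Il25 had no window.

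Dclk1, on chromosome 3 (55242364 to 55539068, plus strand), encodes a microtubule-associated kinase widely used to stain tuft cells in mice, and also expressed in neurons. It was at 0.475 (male) and 0.378 (female) FPKM in wild-type, 0.783 and 0.745 in St6galnac6-/-, 0.580 and 0.365 in B3galt5D116A, and 0.456 and 1.41 in B3gnt7-/-. Both St6galnac6-/- libraries lay above both wild-type and both B3galt5D116A libraries, and the other pairs overlapped. Differences from wild-type were log2 0.31 (SE 0.24), 0.04 (SE 0.24) and 0.39 (SE 0.24), with limma's adjusted p = 0.816, 0.998 and 0.780. The last was -0.03 (SE 0.08) without the B3gnt7-/- female. St6galnac6-/- minus B3galt5D116A was 0.26 (SE 0.24, adjusted p = 0.958). Enteric neuron and glia markers summed to at most 1.73 FPKM over 8 genes, with Sox10 listed at 0 in every library.

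Alox5, on chromosome 6 (116410077 to 116461178, minus strand), encodes 5-lipoxygenase, which starts leukotriene synthesis. It was at 0.197 (male) and 0.112 (female) FPKM in wild-type, 0.647 and 0.521 in St6galnac6-/-, 0.596 and 0.531 in B3galt5D116A, and 0.252 and 0.635 in B3gnt7-/-. All 6 mutant libraries lay above both wild-type libraries, in both sexes. Mean levels (± SD, n = 2) were 0.154 ± 0.0598 in wild-type, 0.584 ± 0.0893 in St6galnac6-/-, 0.563 ± 0.0457 in B3galt5D116A and 0.443 ± 0.271 in B3gnt7-/-, or 3.78, 3.65 and 2.87 times wild-type. Differences were log2 0.46 (95% interval 0.11 to 0.81), 0.44 (0.09 to 0.79) and 0.31 (-0.04 to 0.66), each with SE 0.14. Alox5 was the member with unadjusted p under 0.05, at 0.0197 and 0.0229 in St6galnac6-/- and B3galt5D116A, but limma's adjusted p over 17801 genes was 0.531 and 0.506, and 0.745 in B3gnt7-/-.

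The 8 wild-type fragments of Alox5 came to 3.90 per relative depth (95% Poisson interval 1.68 to 7.68). St6galnac6-/- gave 14.8 (10.4 to 20.3) and B3galt5D116A 14.4 (10.2 to 19.7), clear of that interval, while B3gnt7-/- gave 10.9 (7.21 to 15.7), which overlapped it. Without the B3gnt7-/- female, that mutant's log2 difference was 0.07 (SE 0.05). Of the 7 members read as fragments, the pooled interval lay above that of wild-type for 2 in St6galnac6-/- and 2 in B3galt5D116A (Trpm5 and Alox5) and 3 in B3gnt7-/- (Trpm5, Avil and Ptgs1), beside 2.66%, 2.199% and 5.14% of the 2819 genes in the members' range of means that could be read so.

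Alox5ap, on chromosome 5 (149264767 to 149288153, plus strand), encodes the membrane protein that presents arachidonic acid to 5-lipoxygenase. It was at 1.02 (male) and 0.397 (female) FPKM in wild-type, 1.46 and 0.748 in St6galnac6-/-, 0.875 and 1.22 in B3galt5D116A, and 0.272 and 1.19 in B3gnt7-/-. Every mutant pair overlapped the wild-type pair. The log2 differences were 0.31, 0.28 and -0.01, each with SE 0.34, and limma's adjusted p = 0.892, 0.819 and 1.

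Ptgs1, on chromosome 2 (36230426 to 36252272, plus strand), encodes cyclooxygenase 1, which makes the precursor of prostaglandins. It was at 0.349 (male) and 0.0368 (female) FPKM in wild-type, 0.446 and 0.143 in St6galnac6-/-, 0.374 and 0.277 in B3galt5D116A, and 0.276 and 1.09 in B3gnt7-/-. Every mutant pair overlapped the wild-type pair, whose female value was a single fragment. Differences were log2 0.12, 0.16 and 0.46, each with SE 0.27, with limma's adjusted p = 0.972, 0.881 and 0.780. Pooled fragments per relative depth were 16.7 (12.1 to 22.4) in B3gnt7-/- against 4.87 (2.34 to 8.96) in wild-type, but without the B3gnt7-/- female the log2 difference was -0.03 (SE 0.11).

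Myeloid cells and mast cells also carry these 3 eicosanoid genes. The 10 myeloid markers summed to between 26.1 and 36.0 FPKM and were highest in the B3gnt7-/- male, with Cd14 at 19.1 to 27.5 making up most of the sum. Of the 9 above 0, 4 were highest in the B3gnt7-/- female, among them Tyrobp (4.34 FPKM) and Fcer1g (2.69). Cd68 was at 3.62 in the B3galt5D116A female, and at 3.49 and 3.57 in B3gnt7-/-, against 1.58 and 0.939 in wild-type. Its differences from wild-type were log2 0.74 in B3galt5D116A and 1.02 in B3gnt7-/- (SE 0.25 each), with limma's adjusted p = 0.386 and 0.443. Csf1r was at most 0.191, Adgre1 at most 0.0865, and S100a8 was listed at 0 in every library. The 8 mast cell and basophil markers summed to between 9.80 and 17.8 FPKM, highest in the B3gnt7-/- female, and Kit (9.40 to 17.4) made up most of it. Mcpt1 was at 2.36 and 1.10 FPKM in St6galnac6-/- and 0.860 and 0.397 in B3galt5D116A, against 0.125 and 0 in wild-type. In B3gnt7-/- it was at 0.445 (male) and 0 (female). Mcpt2 was at 0.994 and 0.494 in St6galnac6-/-, against 0.268 and 0 in wild-type. It was at 0.0924 and 0 in B3galt5D116A, and at 0.0956 and 0 in B3gnt7-/-. Tpsb2 was highest in the B3gnt7-/- female, at 0.396 FPKM. Fcer1a and Mcpt4 were listed at 0 in every library, and Cpa3 was at most 0.0655. Their part in the eicosanoid values was not tested.

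Il25, on chromosome 14 (54932695 to 54935837, plus strand), encodes the cytokine by which tuft cells start type 2 responses. It was listed at 0 in 6 libraries and was at 0.353 FPKM in the St6galnac6-/- female and 0.165 in the B3galt5D116A male, which are 2 fragments and 1 fragment. Because both wild-type libraries were at 0, no fold is given. With the same limit of 3 fragments, a count of 0 allows 0.719 FPKM in the wild-type male, above both values seen, so no difference was detectable at this depth.

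By the limma test, 0 of the 2 members with a mean of at least 1 FPKM were called in any mutant against wild-type. The share of all 11537 genes called was 0.0867% for St6galnac6-/-, 0.078% for B3galt5D116A and 0.052% for B3gnt7-/-, and 1043, 1355 and 827 genes had an unadjusted p under 0.05, Trpm5 and Avil not among them. With no filter on low values, 0 of 9 were called against 0%, 0.00562% and 0.0112% of 17801 genes. Over all 9 members the median log2 difference was 0.31, 0.16 and 0.31 for the 3 mutants, against 0, 0 and 0.0005 over all genes. The members' median in B3gnt7-/- against wild-type was -0.02 between the male libraries and 0.65 between the female ones. Medians of the further tuft cell lists described below were smaller in size. They were 0.04, 0.07 and 0.10 for chemosensory signalling genes, and 0.06, 0.07 and 0.07 for eicosanoid enzymes. For transcription factors they were 0.10, -0.09 and 0.01, and for adaptors and surface genes 0.01, 0.04 and 0.16. These lists include genes far above the members' highest mean of 1.20 FPKM, such as Lta4h (76.2), Espn (34.0), Atoh1 (24.4) and Pla2g4a (21.8). How much of the level of such genes comes from tuft cells was not tested. The 10 colon epithelial genes were at -0.07, 0.03 and -0.03. Some lists of other epithelial genes had positive medians in the same fit. The 8 goblet cell genes were at 0.44, 0.41 and 0.37, with 6, 8 and 8 of them positive. The 8 enteroendocrine genes were at 0.56, 0.68 and 0.59 and the 8 proliferation genes at 0.73, 0.79 and 0.36, with Insl5, an enteroendocrine hormone, called in B3galt5D116A when the filter was used. Their part in the members' values was not tested. Between mutants, 0 of the 2 members that passed the filter were called, beside 0.026% of genes for St6galnac6-/- against B3galt5D116A, 0.0433% for St6galnac6-/- against B3gnt7-/- and 0.00867% for B3galt5D116A against B3gnt7-/-. With no filter, 0 of 9 members were called, and those shares were 0.00562%, 0.00562% and 0%. Between the sexes, 0 of 2 were called with the filter, beside 0.052% of genes, and 0 of 9 without it, beside 0.0281%. In these comparisons 0 of 9 members had an unadjusted p under 0.05. For Trpm5 the intervals of the differences between mutants were -0.64 to 0.80 (St6galnac6-/- minus B3galt5D116A), -0.79 to 0.65 (St6galnac6-/- minus B3gnt7-/-) and -0.87 to 0.57 (B3galt5D116A minus B3gnt7-/-) on the log2 scale.

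**Figure D3:**
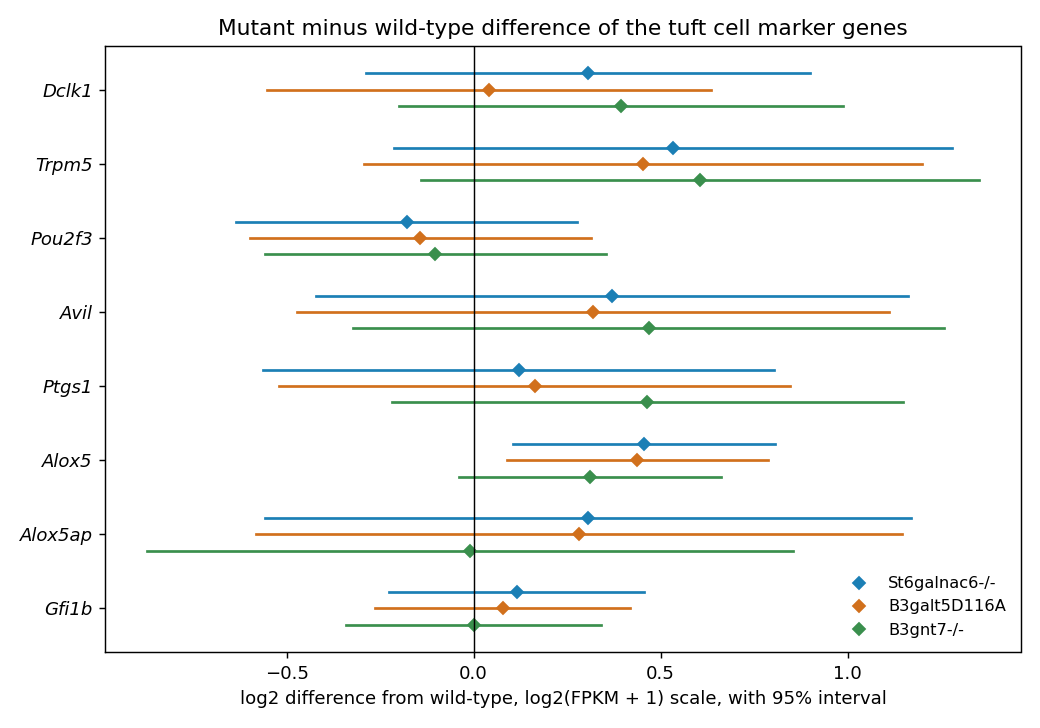
Mutant minus wild-type difference (horizontal axis, log2(FPKM + 1) scale) of 8 members with 95% intervals, from the limma fit with no filter on low values; diamonds are estimates, and the line marks no difference. The intervals of Alox5 in St6galnac6-/- and B3galt5D116A exclude 0 before adjustment and all others span 0; the Pou2f3 estimates are negative in each mutant.

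Pairs of libraries that did not overlap were counted next, beside the share of all genes that did so. In St6galnac6-/-, both libraries lay above both wild-type libraries for 4 of 9 members (Dclk1, Trpm5, Avil and Alox5), beside 19.9% of 17801 genes, and below for 1 (Pou2f3), beside 20.1%. In B3galt5D116A this was 3 above (Trpm5, Avil and Alox5), beside 21%, and 0 below, beside 21.1%. In B3gnt7-/- it was 2 above (Trpm5 and Alox5), beside 16%, and 0 below, beside 15.3%. Between mutants the St6galnac6-/- pair lay above the B3galt5D116A pair for 1 member (Dclk1), beside 19.1% of genes, and below it for 0, beside 17%. For St6galnac6-/- against B3gnt7-/- both counts were 0 (13.2% above and 14.7% below), as they were for B3galt5D116A against B3gnt7-/- (14.4% and 16.4%). The 3 comparisons share the wild-type libraries, so they are not independent of each other, and a pair against a pair cannot reach an exact permutation p below 0.333.

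Each mutant library was also set against the wild-type library of its sex, a description with no test. In St6galnac6-/-, 7 of 9 members were higher than wild-type in both sexes, 1 was lower in both and 0 lay in opposite directions, beside 25.48%, 25.02% and 36.62% of all genes. In B3galt5D116A these counts were 5, 1 and 2, beside 25.97%, 26.27% and 34.99%. In B3gnt7-/- they were 2, 0 and 6, beside 24.21%, 23.07% and 40.74%. The B3gnt7-/- male and female Poisson intervals did not overlap for 4 of 7 members (Trpm5, Pou2f3, Avil and Ptgs1), beside 7.73% of the 2819 genes in the members' range of means that could be read as fragments. Within the other 3 genotypes 0 of 7 were apart, beside 1.81% in wild-type, 2.09% in St6galnac6-/- and 2.84% in B3galt5D116A. Such intervals set 1 library against 1 on counting error only, and genes with more fragments have narrower ones.

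The members were also compared with each other over the 8 libraries, which differ in genotype, sex and depth. Trpm5 and Avil, the pair with a mean of at least 1 FPKM, had Pearson r 0.940 (exact permutation p = 0.00117) and Spearman rho 0.905 (exact permutation p = 0.00456), and r 0.805 without the wild-type female and the B3gnt7-/- female. Among the 7 members above 0 in every library, r ran from 0.0882 (Pou2f3 with Alox5) to 0.940, with a median of 0.623 over 21 pairs. After Benjamini-Hochberg adjustment over those pairs, 5 passed by Pearson (exact permutation): Trpm5 with Avil, Alox5 and Dclk1, and Avil with Dclk1 and Alox5. By Spearman 2 did, Trpm5 with Avil and with Alox5. The permutations treat the 8 libraries as exchangeable, although libraries share a genotype or a sex. Differences between genotypes, or a single outlying library, therefore also enter these p-values. The share of all gene pairs with such an r was not counted. When each pair was computed again without the 2 libraries farthest from the median of its first member, which differ between pairs, the median r was 0.267. Of the 6 pairs then negative, 5 held Pou2f3, and the sixth, Avil with Ptgs1, went from 0.847 to -0.107 and so rested on the libraries left out. The 5 pairs that had passed had r between 0.672 and 0.955, the latter for Trpm5 with Alox5 (0.865 over 8 libraries). Pou2f3 with Trpm5 had 0.376 over 8 libraries and -0.103 without them.

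**Figure D4:**
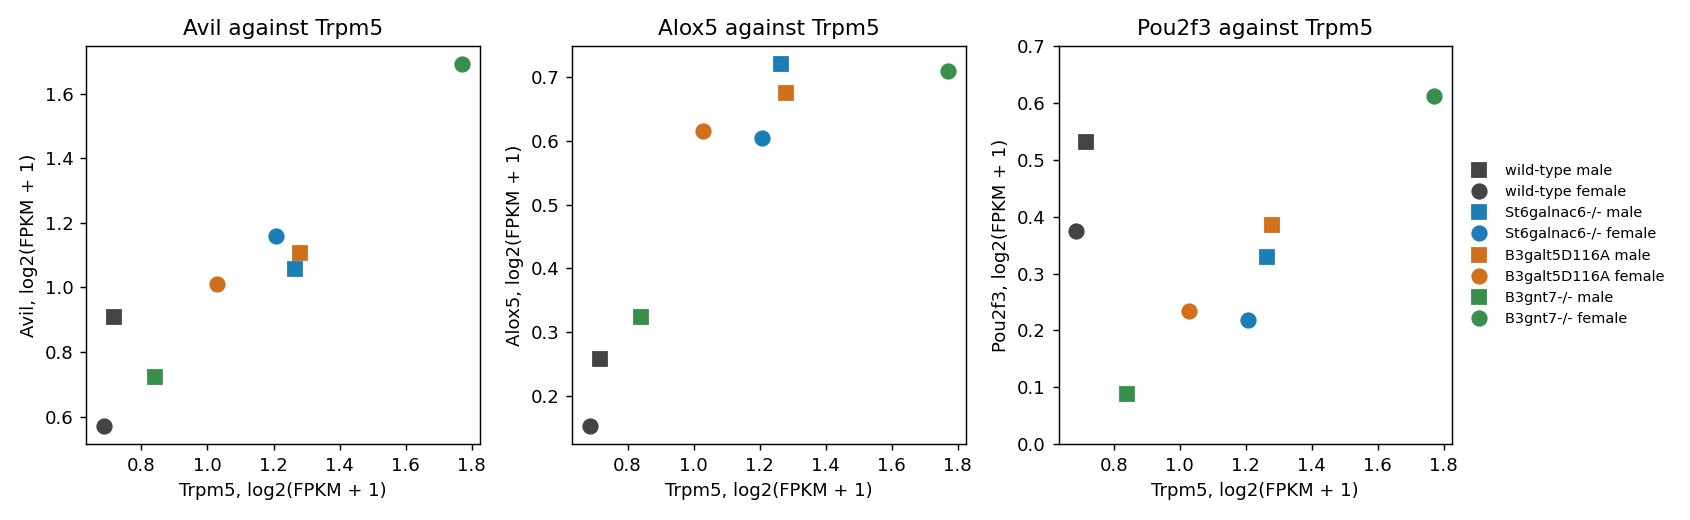
Avil, Alox5 and Pou2f3 (vertical axes) against Trpm5 (horizontal axis), log2(FPKM + 1), 1 point per library, squares for males and circles for females. Avil is higher where Trpm5 is higher (r 0.940), Alox5 separates both wild-type libraries and the B3gnt7-/- male from the other 5, and Pou2f3 follows Trpm5 less closely (r 0.376).

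Among the 10 tested genes outside the members whose pattern was most like the mean standardized level of Trpm5 and Avil were Stim2 (r 0.975), Vill (0.970), Sec61a2 (0.968), AI507597, Slc2a4rg-ps, 4933407K13Rik, Mgat1, Gapvd1 and Gal3st2 (0.944). Without the 2 farthest libraries Stim2 had r 0.883 and Vill 0.917. These are descriptions over 8 libraries, chosen as the highest of all tested genes.

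Further tuft cell genes were taken from 4 lists, of which 43 of 46 genes were matched; Pou2af2, Pou2af3 and Sh2d6 were not matched. By limma, 0 of the 21 with a mean of at least 1 FPKM were called in any mutant against wild-type, and 5, 2 and 3 had an unadjusted p under 0.05 in St6galnac6-/-, B3galt5D116A and B3gnt7-/-. Of all 11537 genes, 0.0867%, 0.078% and 0.052% were called, and 1043, 1355 and 827 genes had an unadjusted p under 0.05. Of the receptors and signal transducers, Itpr2, an inositol trisphosphate receptor with a mean of 5.36 FPKM, was the single tested gene, at log2 -0.46, -0.53 and -0.51 (adjusted p = 0.521, 0.385 and 0.632). With no filter, 9, 6 and 7 of those 10 genes had a positive difference, but 7 of the 10 were below 1 FPKM in every library. Over all 43 list genes, 29, 25 and 33 were positive and 13, 17 and 9 negative. The share of positive signs over all genes was not counted, and the median difference over all genes was 0, 0 and 0.0005. Among eicosanoid enzymes, Hpgds, the prostaglandin D synthase of tuft cells, had levels of 2.96 (male) and 2.65 (female) FPKM in St6galnac6-/- and 1.80 and 1.52 in wild-type (log2 0.52, SE 0.19, adjusted p = 0.515), and at 1.31 and 1.09 in B3galt5D116A (log2 -0.28). Of the transcription factors, the St6galnac6-/- libraries had Gfi1 at 5.25 (male) and 5.40 (female) FPKM, the wild-type libraries at 3.33 and 2.60 (log2 0.68, SE 0.18, adjusted p = 0.342). Sox4 was at log2 0.46 (SE 0.17, adjusted p = 0.518) there. Gfi1 and Atoh1 are also genes of goblet cells, whose 8 markers summed to 7734 and 9607 FPKM in St6galnac6-/- against 6167 and 6019 in wild-type. Those markers summed to 8287 (male) and 7483 (female) in B3galt5D116A, and to 7359 and 9534 in B3gnt7-/-.

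Among the adaptors and surface genes, Krt23, a keratin, was at log2 -0.73, -0.93 and -0.77 in St6galnac6-/-, B3galt5D116A and B3gnt7-/- (SE 0.19 each, adjusted p = 0.329, 0.265 and 0.443). Rgs13, a regulator of G protein signalling, was at 2.91 FPKM in the B3gnt7-/- female against at most 0.988 elsewhere. Of the 32 list genes with a mean under 3 FPKM, 16 were highest in that library (50%), beside 26.5% of the 7893 genes under that mean.

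The partners of the type 2 circuit were not equally measurable. Il4 and Il13ra2 were listed at 0 in every library, Il13 was at most 0.0708 FPKM and Il5 at most 0.0775. Of the other receptor and signalling genes, Il13ra1 was at 24.9 to 31.9 FPKM, Stat6 at 30.4 to 34.1 and Il4ra at 6.35 to 7.97, and Il17rb, the Il25 receptor subunit, was at 0.593 to 1.32.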

How the data were processed

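Colon epithelial RNA (miRNeasy Micro Kit) was sequenced from TruSeq stranded mRNA libraries, per the labels' protocols. Cuffdiff 2.2.1, SAMtools 0.1.18, TopHat2 2.1.1, Bowtie2 2.2.8 and mm10 are listed in the submitters' processing notes. Annotation, strand setting and scaling between libraries are not given in the sources used here. The authors deposited 1 table of FPKM values per library, per the file headers. The labels name no batch and no replicate numbers, and batch and genotype cannot be told apart. The p-values reflect only the spread among these samples, which may be technical.

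Values were tested as log2(FPKM + 1) with limma 3.58.1 (R 4.3.3; eBayes, trend=TRUE), with additive genotype and sex effects over the 8 libraries together, two-sided, with Benjamini-Hochberg adjustment over all genes tested. The fit has 3 residual degrees of freedom. Genes were kept if their mean reached 1 FPKM (11537 genes), which holds for Trpm5 and Avil. The 7 members below that mean were read from the same fit with no filter (17801 genes). A fold on this scale understates the change of low genes. The test was run on simulated data with known changes, in genes that passed the filter only. Those changes were larger than any member's difference from wild-type in the fit used here. The run therefore does not show what could be detected for the members. Alternatives were pseudocount 0.1, no filter, quantile normalization, median centring, no sex term and each library left out. Leaving out libraries with no filter, no filter with pseudocount 0.1, and correlations over the 7 members above 0 in every library were added after seeing the data. A relative depth came from the most frequent ratio of values under 0.15 FPKM, and members were read as fragments where values were whole multiples of 1 step. Positions are from GENCODE M21 (mm10). All 9 members, the targeted genes, up to 5 genes per list with the highest mean and the 10 genes most like Trpm5 and Avil were to be named; other list genes (Rgs13, Il17rb, genes at or near 0) were chosen after their values were seen. Not every gene that this rule names is reported here. The members and lists were chosen with earlier results of these data known.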

Additional observations from a re-analysis of the deposited data

Results flagged for a closer look

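For 8 results the male and the female mutant library lay on opposite sides of the wild-type library of their sex. Each is 1 library against 1 on the log2(FPKM + 1) scale, and the difference between the sexes was not tested. In B3gnt7-/-, the female minus male difference was 1.31 for Avil (male -0.18, female 1.12), 1.31 for Alox5ap (-0.67 and 0.65), 1.09 for Ptgs1 (-0.08 and 1.01), 0.83 for Dclk1 (-0.02 and 0.81) and 0.68 for Pou2f3 (-0.44 and 0.24). Gfi1b lay the other way there, at -0.51 (0.26 and -0.26), from 4 fragments in the male and 0 in the female. In B3galt5D116A it was 0.77 for Alox5ap (-0.11 and 0.67) and -0.11 for Dclk1 (0.10 and -0.01). In B3gnt7-/-, Avil, Ptgs1 and Dclk1 lay farther from wild-type in the female, Pou2f3 lay farther in the male, and Alox5ap lay about equally far in both.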

How the results depend on the processing

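Of 24 differences of members from wild-type (8 members, 3 mutants; Il25 has none), 10 kept their direction under every alternative run and 14 turned when 1 library was left out; 21 of 246 alternatives reversed, and 0 passed the threshold (smallest adjusted p 0.165). Without each library in turn, Trpm5 stayed positive (0.40 to 0.67 in St6galnac6-/-, 0.19 to 0.72 in B3galt5D116A, 0.08 to 1.13 in B3gnt7-/-), as did Alox5 (0.36 to 0.55, 0.35 to 0.53 and 0.07 to 0.55). Other members reversed as follows (ranges over all libraries left out in brackets). In St6galnac6-/-, Ptgs1 (-0.11 to 0.35) was -0.113 without the wild-type female and -0.087 without the mutant male, Alox5ap (-0.05 to 0.66) -0.047 and -0.024 likewise, and Gfi1b (to 0.23) -0.0016 without the wild-type male. In B3galt5D116A without the wild-type female, Dclk1 (-0.163 to 0.25) was -0.088, Avil (to 0.65) -0.011, Ptgs1 (to 0.40) -0.070 and Alox5ap (to 0.64) -0.072. Dclk1 was -0.163 without the mutant male, and Gfi1b (to 0.21) -0.040 without the wild-type male and -0.055 without the mutant female. In B3gnt7-/- without the mutant female, Dclk1 (to 0.82) was -0.027, Avil (to 1.01) -0.072, Ptgs1 (to 0.96) -0.028 and Gfi1b (-0.22 to 0.22) 0.223. Over the 8 libraries Gfi1b was at log2 -3.2e-05 there, which is no direction, though it is counted among the 14. Without the mutant male or the wild-type male, Pou2f3 (from -0.43) was 0.23 or 0.021 and Alox5ap (from -0.53) 0.51 or 0.344, and Gfi1b was 0.117 without the wild-type female. With 1 library left out, the lone library of that genotype is assumed to vary like the others.

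Counts of genes called moved more. St6galnac6-/- against wild-type gave 10 genes, but 0 with no filter, 5 with quantile normalization, 23 with no sex term and 2 to 31 without each library. B3galt5D116A gave 9, then 1 with no filter, 16 with no sex term and 3 to 13 without each library. B3gnt7-/- gave 6, then 2 with no filter and 3 to 36. St6galnac6-/- against B3galt5D116A gave 3, then 5 with a pseudocount of 0.1, 1 with no filter, 7 with no sex term and 1 to 10. St6galnac6-/- against B3gnt7-/- gave 5, then 1 with no filter and 2 to 39, and B3galt5D116A against B3gnt7-/- 1, then 0 with no filter or quantile normalization, 2 with no sex term and 0 to 35. Male against female gave 6, and 5 to 6 without each library. Among the libraries left out, in the comparisons of genotypes, the highest count came without a B3gnt7-/- library and the lowest without a wild-type library (for B3galt5D116A against B3gnt7-/-, also without others). The cause was not tested. The labels carry no replicate numbers, so the sexes are the one pairing they give; sex is a term of the fit, and the results with no sex term are those above. Depth limits Gfi1b and Il25 most, at no more than 5 fragments per library.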
